A study of Mus musculus with 16 samples.

Results

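Alternative activation is the state that macrophages enter when interleukin-4 (IL-4) or interleukin-13 (IL-13) reaches them, and 10 genes that make up or mark that response in the mouse were followed. They were taken by name from a list, and no threshold on measured values entered the choice, although earlier results of these data were known: Il4ra, Stat6, Mrc1, Clec10a, Mgl2, Arg1, Retnla, Chil3, Tgm2 and Pdcd1lg2. All 10 were found among the 55421 Ensembl genes of each of the 16 count tables through their GENCODE M21 symbols, and all 10 passed the filter on low counts (edgeR filterByExpr by group) in WAT, in liver and over both tissues.

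The series addresses how NOX_6_18, an antagonist of the G protein-coupled receptor GPR132, changes RNA in macrophages of white adipose tissue (WAT) or liver. RNA-seq libraries were made from C57BL/6 mice fed HFD, 2 in each of 8 groups, and the labels give macrophages as the source of the RNA although it was the tissue that went into liquid nitrogen. In each tissue the groups were GPR132fl/fl mice given NOX_6_18 (fl/fl NOX_6_18), GPR132fl/fl mice carrying Lyz2_cre and given vehicle (CKO vehicle), the same genotype given NOX_6_18 (CKO NOX_6_18), and GPR132fl/fl mice given vehicle (fl/fl vehicle). Floxed Gpr132, the C57BL/6 strain and the HFD diet were thus common to all groups, controls included. Lyz2_cre expresses Cre recombinase from a myeloid gene, so it acts in monocytes, macrophages and neutrophils and not in macrophages alone. No age, dose or treatment time is stated in the sources used here. Nothing in the labels ties the 2 libraries of a group to different mice, and p-values therefore cover library-to-library spread, possibly only technical.

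IL-4 and IL-13 bind receptors that share the IL-4 receptor alpha chain, which signals through Janus kinases to the transcription factor STAT6. In mouse macrophages STAT6 turns on lectin receptors, secreted proteins and enzymes such as arginase 1, and adipose tissue and liver macrophages use this program in tissue upkeep and metabolic control. Several of these genes are also used outside macrophages: hepatocytes hold arginase 1 for the urea cycle, liver sinusoidal endothelium displays the mannose receptor, and mouse neutrophils and their precursors contain Chil3. In bulk RNA, a lower level from fewer cells of a type and from less RNA per cell cannot be told apart.

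In GENCODE M21 (GRCm38) all 10 are protein-coding genes. Il4ra (ENSMUSG00000030748) lies at chr7:125552120-125579474 and Stat6 (ENSMUSG00000002147) at chr10:127642986-127660957. Mrc1 (ENSMUSG00000026712) lies at chr2:14229392-14332057, with Clec10a (ENSMUSG00000000318) at chr11:70156197-70170834 and Mgl2 (ENSMUSG00000040950) beside it at chr11:70130329-70137550. Arg1 (ENSMUSG00000019987) lies at chr10:24915221-24927484, Retnla (ENSMUSG00000061100) at chr16:48842551-48844461 and Chil3 (ENSMUSG00000040809) at chr3:106147554-106167564. Tgm2 (ENSMUSG00000037820) lies at chr2:158116402-158146436 and Pdcd1lg2 (ENSMUSG00000016498) at chr19:29410919-29471161. Counts are over whole genes and no exon is singled out.

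The smallest WAT library held 48348395 counts and the largest 58396991, and liver libraries held 45624957 at least and 60761705 at most. Levels are CPM, counts scaled to a library of 1000000, and 3 counts were worth 0.0494 to 0.0658 CPM. In each tissue the pair of fl/fl vehicle libraries was separate from the other 6. In WAT 30393 to 31289 genes had a count in a library of the other 3 groups, against 25039 and 25702 genes in the fl/fl vehicle libraries. Summed CPM of 10 male germ and Leydig cell markers were 964 to 1070 in those 6 WAT libraries and 37.4 and 42.5 in the fl/fl vehicle libraries. The 12 neutrophil markers summed to 189 to 210 CPM in the 6 WAT libraries, against 79.5 and 88.5 CPM in fl/fl vehicle. In liver they summed to 143 to 154 CPM in the 6 libraries, against 38.1 and 38.9 CPM in fl/fl vehicle. Any comparison with fl/fl vehicle carries that separation, and the effect of NOX_6_18 in fl/fl mice and of CKO on vehicle share the same 2 control libraries. Within a tissue, the comparisons without those libraries are NOX_6_18 against vehicle in CKO mice and CKO against fl/fl on NOX_6_18. Gpr132, the targeted gene, had 60.1 and 60.3 CPM in WAT of fl/fl NOX_6_18, 35.6 and 64.5 CPM in CKO vehicle and 56.5 and 59.1 CPM in CKO NOX_6_18, against 69.7 and 72.5 CPM in fl/fl vehicle. In liver it had 1.64 and 2.13 CPM in fl/fl NOX_6_18, 1.46 and 1.86 CPM in CKO vehicle and 2.41 and 2.81 CPM in CKO NOX_6_18, against 4.04 and 4.26 CPM in fl/fl vehicle. Which exons were floxed is not stated, so counts over the whole gene do not check the deletion.

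The promoters of 2 members are shown because these genes had the widest differences: Retnla had the widest gap between tissues, and Chil3 had the largest fold difference from fl/fl vehicle in WAT. Each line is RefSeq sequence (GRCm38.p6) of the 250 bases before the RefSeq start, ended before the GENCODE start for Retnla, and capitals mark the match to the spacing named, TTCNNNNGAA in Retnla (chr16:48842359-48842550, plus strand) and TTCNNNGAA in Chil3 (chr3:106167565-106167814, minus strand).
Retnla: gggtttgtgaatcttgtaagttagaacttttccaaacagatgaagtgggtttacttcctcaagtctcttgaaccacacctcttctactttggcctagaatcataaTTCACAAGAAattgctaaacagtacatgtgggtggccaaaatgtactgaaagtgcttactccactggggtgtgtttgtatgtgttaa
Chil3: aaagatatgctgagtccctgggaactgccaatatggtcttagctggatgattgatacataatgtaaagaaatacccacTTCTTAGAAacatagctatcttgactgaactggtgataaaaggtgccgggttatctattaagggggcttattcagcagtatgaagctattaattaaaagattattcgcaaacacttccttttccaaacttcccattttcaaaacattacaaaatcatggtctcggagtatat
STAT6 prefers the first spacing, with 4 bases between the half-sites, while other STAT proteins prefer the second. On both strands of windows from 250 bases before to 50 after the start, TTCNNNNGAA was found in 6.95% and TTCNNNGAA in 8.3% of 32851 promoters in the RefSeq table. The element of Retnla, TTCACAAGAA, began at position -145 and that of Chil3, TTCTTAGAA, at -172 from the RefSeq start. Of the 7 members present in the table, Pdcd1lg2 alone also held TTCNNNNGAA, as TTCCTCAGAA at -82. The windows of Il4ra, Stat6, Mrc1 and Mgl2 held neither spacing, and Arg1, Clec10a and Tgm2 were not in the table. These matches describe letters and do not locate binding.

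Scaled within each tissue, Retnla was the most abundant member per length in WAT, and Mrc1 in liver. In WAT, Retnla, which encodes the secreted protein RELM-alpha, had a mean level per kilobase (kb) of exon of 2507 CPM in fl/fl NOX_6_18, 2674 CPM in CKO vehicle, 2514 CPM in CKO NOX_6_18 and 2841 CPM in fl/fl vehicle. Mrc1, the macrophage mannose receptor CD206, came second in WAT with 185 CPM per kb in fl/fl NOX_6_18, 176.5 in CKO vehicle, 184 in CKO NOX_6_18 and 214 in fl/fl vehicle. Below them in WAT stood Mgl2, Tgm2, Clec10a, Stat6, Il4ra, Chil3, Arg1 and Pdcd1lg2. No neighbours in that order had overlapping libraries except Chil3 and Arg1 in fl/fl vehicle, at 2.86 and 2.81 CPM per kb. In liver Mrc1 led with 201, 200, 204 and 161 CPM per kb in fl/fl NOX_6_18, CKO vehicle, CKO NOX_6_18 and fl/fl vehicle, followed by Tgm2 with 80.8, 84.1, 83.6 and 79.4 CPM per kb. Arg1 was next in liver with 39.6, 38.2 and 37.1 CPM per kb in the 3 groups other than fl/fl vehicle, and there it stood below Stat6, at 17.3 against 23.8 CPM per kb for Stat6. Clec10a and Mgl2 overlapped in liver in those same 3 groups, between 1.01 and 2.04 CPM per kb, and Pdcd1lg2 was lowest of the 10 in both tissues.

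**Figure D1:**
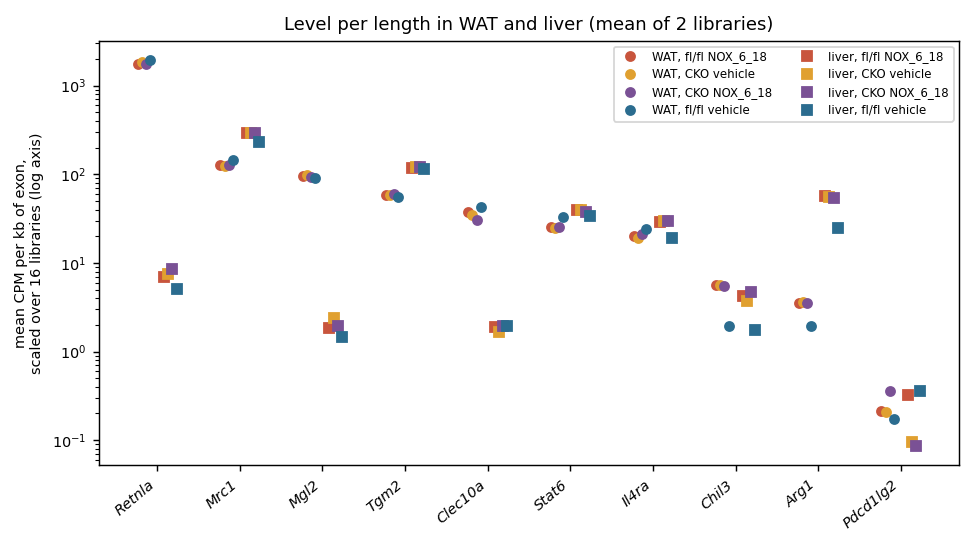
Mean CPM per kb of exon (log axis, scaled over all 16 libraries) of the 10 genes, with WAT as circles and liver as squares and 1 colour for each group of 2 libraries. Retnla, Mgl2 and Clec10a lie far higher in WAT than in liver, and Arg1 lies lower in WAT than in liver.

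Differences are log2 fold changes from the quasi-likelihood test of edgeR, and a gene is called where its p, adjusted by Benjamini-Hochberg over all tested genes, is under 0.05. Libraries were scaled by TMM factors, which assume that most genes do not differ. The alternatives that changed the direction of a called value were scaling to library totals, scaling to the summed counts of 18 pan-macrophage markers within a tissue, and removing the trend of each library with GC content and gene length. The 18 markers include Lyz2, the gene named in the Lyz2_cre of CKO mice, and its part in that scale was not tested. WAT and liver differed most in Retnla and in both galactose-type lectins. On CPM scaled over all 16 libraries, Retnla averaged 1039 ± 9.11 in WAT and 4.16 ± 0.25 in liver of fl/fl NOX_6_18 mice (SD, n = 2 each). Its log2 difference of WAT minus liver was 7.96, 7.95, 7.67 and 8.58 in fl/fl NOX_6_18, CKO vehicle, CKO NOX_6_18 and fl/fl vehicle, with edgeR SE of 0.165 to 0.174. Mgl2, a mouse lectin that binds N-acetylgalactosamine, averaged 201 ± 1.10 CPM in WAT and 3.84 ± 0.0572 CPM in liver of fl/fl NOX_6_18 mice, and its log2 difference was 5.38 to 5.98 over the 4 groups. Clec10a, its neighbour gene and close relative, averaged 108 ± 13.9 CPM in WAT and 5.43 ± 0.174 CPM in liver of the same mice, with log2 differences of 3.99 to 4.49. The WAT and liver libraries of these 3 genes did not overlap in any group. The Mgl2 and Clec10a transcripts are 84.2% identical over their best local alignment, and 10.6% of the 50-base windows of Clec10a occur in Mgl2, so a part of their counts could be shared.

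Arg1 showed the reverse. It averaged 7.90 ± 0.0132 CPM in WAT and 128 ± 1.35 CPM in liver of fl/fl NOX_6_18 mice, a log2 difference of -4.01 ± 0.132 (SE), and its difference was -3.93, -3.93 and -3.68 in CKO vehicle, CKO NOX_6_18 and fl/fl vehicle. Beside it the summed CPM of 11 hepatocyte markers, scaled within each tissue, were 3416 to 3538 in the 6 liver libraries other than fl/fl vehicle and 53.4 to 60.7 in the matching WAT libraries. The part of hepatocyte RNA in the liver level of Arg1 was not tested.

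The remaining members depended on scaling or on the group. Mrc1 was lower in WAT than in liver in all 4 groups, with log2 differences of -1.19, -1.24, -1.22 and -0.66 in fl/fl NOX_6_18, CKO vehicle, CKO NOX_6_18 and fl/fl vehicle, but its sign in fl/fl vehicle turned to 0.29 when library totals replaced TMM factors, which also ended the call in fl/fl NOX_6_18, at -0.078 (adjusted p = 0.114). Tgm2, transglutaminase 2, had log2 differences of -0.98 to -1.05, and library totals turned it to 0.05 to 0.13 in the 3 groups other than fl/fl vehicle and ended the call in fl/fl vehicle, at -0.10 (adjusted p = 0.154). Il4ra had log2 differences of -0.52, -0.64 and -0.50 in fl/fl NOX_6_18, CKO vehicle and CKO NOX_6_18 and of 0.34 in fl/fl vehicle, and library totals turned the first 3 to 0.59, 0.46 and 0.60. Stat6 had -0.63, -0.65 and -0.55 in those 3 groups, where library totals gave 0.48, 0.45 and 0.55, and its difference of -0.06 in fl/fl vehicle was not called. Mitochondrially encoded genes took 2.31 to 3.61% of WAT counts and 43.0 to 44.9% of liver counts, and without TMM the median of all genes in WAT minus liver moved to 1.41 from 0.31 in fl/fl NOX_6_18. Library totals also moved the share of calls that were higher in WAT to 92.3%, against 64.4% with TMM, in that comparison.

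By edgeR 3 members were called higher and 5 lower in WAT than in liver of fl/fl NOX_6_18 mice, where 33.1% of all tested genes were called higher and 18.3% lower. In CKO vehicle 4 were higher and 5 lower, against 33.7% and 18.4% of all genes. In CKO NOX_6_18 the counts were 4 and 5, against 33.3% and 18.1%, and in fl/fl vehicle 4 and 3, against 21.6% and 16.5%. Chil3 was called in CKO vehicle alone, at 0.60 (adjusted p = 0.0147), and it was no longer called without WAT CKO vehicle replicate 1 (0.43, adjusted p = 0.132) or liver CKO vehicle replicate 1 (0.51, adjusted p = 0.1), and its sign turned to -0.50 with GC and length trends removed. Pdcd1lg2 was called in CKO NOX_6_18 alone, at 2.02 (adjusted p = 0.0432), on 8 and 4 counts in the liver libraries. It lost the call without WAT CKO NOX_6_18 replicate 1 (1.32), liver CKO NOX_6_18 replicate 1 (2.60) or replicate 2 (1.61). The call was also lost with GC and length trends removed (1.33, adjusted p = 0.156) and with no filter (adjusted p = 0.0519). Limma-voom (adjusted p = 0.0631) and edgeR on only the groups compared (adjusted p = 0.0572) did not call it either.

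Within WAT, the receptor and signalling genes were lower than in fl/fl vehicle, and Chil3 and Arg1 were higher, on the TMM scale. The pan-macrophage scale turned the sign of the lower ones, and Stat6 was then not called in either comparison. Il4ra, the alpha chain shared by the IL-4 and IL-13 receptors, had 174 and 177 CPM in fl/fl NOX_6_18, 165 and 168 CPM in CKO vehicle and 185 and 181 CPM in CKO NOX_6_18, against 208 and 215 CPM in fl/fl vehicle. All 6 libraries lay below both fl/fl vehicle libraries. With NOX_6_18 in fl/fl mice Il4ra fell by 0.27 ± 0.0576 on the log2 scale (SE, adjusted p = 0.00693), and with CKO on vehicle by 0.34 ± 0.0576 (adjusted p = 0.0021), but scaling to the sum of 18 pan-macrophage markers turned these to 0.32 and 0.22. The first call was lost without fl/fl NOX_6_18 replicate 1 (-0.25, adjusted p = 0.0584) or replicate 2 (-0.27, adjusted p = 0.0523), and with library totals (-0.10, adjusted p = 0.207).

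Stat6, the transcription factor that the receptor activates, followed Il4ra in WAT. It had 163 and 158 CPM in fl/fl NOX_6_18, 156 and 161 CPM in CKO vehicle and 161 and 166 CPM in CKO NOX_6_18, against 202 and 219 CPM in fl/fl vehicle, again with no overlap. Its log2 differences were -0.39 ± 0.0651 with NOX_6_18 (adjusted p = 0.00198) and -0.41 ± 0.0651 with CKO (adjusted p = 0.00157). The pan-macrophage scale turned them to 0.20 (adjusted p = 0.105) and 0.15 (adjusted p = 0.197), neither called. Exons of Stat6 share 40 bases with Nab2 and those of Il4ra 571 bases with Gm44876, both on the other strand, and since the strand setting of the counting is not given, reads there are uncertain.

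Mrc1 was also lower in WAT on the TMM scale, and higher on the pan-macrophage scale. It had 1181 and 1173 CPM in fl/fl NOX_6_18, 1106 and 1142 CPM in CKO vehicle and 1180 and 1163 CPM in CKO NOX_6_18, against 1320 and 1403 CPM in fl/fl vehicle. The groups did not overlap, but the differences were small, at -0.21 ± 0.0456 with NOX_6_18 (adjusted p = 0.00755) and -0.28 ± 0.0457 with CKO (adjusted p = 0.00195), and the pan-macrophage scale turned them to 0.38 and 0.29. Library totals ended both calls, at -0.04 (adjusted p = 0.511) and -0.11 (adjusted p = 0.109). The call with NOX_6_18 was also lost without fl/fl NOX_6_18 replicate 1 (-0.21, adjusted p = 0.0551) or replicate 2 (-0.19, adjusted p = 0.0903), and with only the groups compared (-0.20, adjusted p = 0.0627).

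Clec10a had 142 and 170 CPM in WAT of fl/fl NOX_6_18, 153 and 135 CPM in CKO vehicle and 119 and 139 CPM in CKO NOX_6_18, against 191 and 174 CPM in fl/fl vehicle. The 6 libraries were below both fl/fl vehicle libraries. Its difference of -0.22 ± 0.117 with NOX_6_18 was not called (adjusted p = 0.17), and that of -0.35 ± 0.117 with CKO was (adjusted p = 0.0491). The pan-macrophage scale turned them to 0.37 (called, adjusted p = 0.0201) and 0.22 (not called, adjusted p = 0.119). With GC and length trends removed, the difference with NOX_6_18 was called lower, at -0.38 (adjusted p = 0.0249). The call with CKO was lost when any 1 of the 4 libraries compared was left out: without fl/fl vehicle replicate 1 (adjusted p = 0.179) or replicate 2 (0.056), and without CKO vehicle replicate 1 (0.0651) or replicate 2 (0.243). It was also lost with RLE factors (adjusted p = 0.0555), library totals (-0.18, adjusted p = 0.276), no filter (0.0522), a minimum of 50 counts (0.0597) or only the groups compared (0.056). Dendritic cells also carry this lectin, and their 10 markers summed to 4687 to 5684 CPM in the 6 WAT libraries, against 5833 and 6515 CPM in fl/fl vehicle. These markers include H2-Ab1 and Cd74, genes of MHC class II antigen presentation, so the sum may include other cell types. The part of dendritic cells was not tested. Mgl2 had 282 to 301 CPM in the 6 libraries and 288 and 272 CPM in fl/fl vehicle. CKO NOX_6_18 overlapped with fl/fl vehicle, while fl/fl NOX_6_18 and CKO vehicle lay above it. Mgl2 was not called (log2 differences 0.06 and 0.09, adjusted p = 0.471 and 0.224). Library totals called it higher, at 0.22 and 0.26, and so did the pan-macrophage scale, at 0.65 and 0.66. With GC and length trends removed it was called lower, at -0.22 (adjusted p = 0.00535) and -0.20 (adjusted p = 0.00812).

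Arg1, which splits arginine into ornithine and urea, was low in WAT but higher in every library than in fl/fl vehicle. It had 11.4 and 11.4 CPM in fl/fl NOX_6_18, 12.2 and 10.9 CPM in CKO vehicle and 10.6 and 12.1 CPM in CKO NOX_6_18, against 5.46 and 7.08 CPM in fl/fl vehicle. With NOX_6_18 it rose by 0.86 ± 0.163 (1.82-fold, adjusted p = 0.00388), and with CKO by 0.88 ± 0.163 (adjusted p = 0.0035). Hepatocyte markers moved with it: their 11 measured members summed to 53.4 to 60.7 CPM in the 6 WAT libraries and to 18.1 and 19.0 CPM in fl/fl vehicle, and their part in the difference was not tested.

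Chil3, a secreted chitinase-like protein also called Ym1, showed the largest difference of the 10 in WAT. It had 13.9 and 12.96 CPM in fl/fl NOX_6_18, 14.7 and 11.8 CPM in CKO vehicle and 13.4 and 12.2 CPM in CKO NOX_6_18, against 5.16 and 4.17 CPM in fl/fl vehicle, a gap wider than any spread within a group. With NOX_6_18 it rose by 1.52 ± 0.168 (2.88-fold, adjusted p = 0.000195), and with CKO by 1.51 ± 0.168 (adjusted p = 0.00021). Of 11 neutrophil markers tested, 7 rose and 0 fell with NOX_6_18 and 6 rose and 0 fell with CKO, and their summed levels stand above. Of all genes in WAT, 24.6% were called higher and 13.2% lower with NOX_6_18, and 24.4% and 12.4% with CKO. Lcn2, a granule protein that binds bacterial iron carriers, rose by 1.94 and 2.06, and the part of neutrophil RNA in the Chil3 level was not tested. Chil4, whose transcript is 94.4% identical to that of Chil3 and shares 18.5% of its 50-base windows, had 0, 4, 0 and 1 counts summed over the 2 WAT libraries of fl/fl NOX_6_18, CKO vehicle, CKO NOX_6_18 and fl/fl vehicle.

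Retnla had 1494 and 1509 CPM in fl/fl NOX_6_18, 1707 and 1496 CPM in CKO vehicle and 1497 and 1514 CPM in CKO NOX_6_18. In fl/fl vehicle it had 1827 and 1576 CPM. CKO vehicle overlapped with fl/fl vehicle, while fl/fl NOX_6_18 and CKO NOX_6_18 lay below it. The log2 differences of Retnla, -0.18 ± 0.0799 with NOX_6_18 (adjusted p = 0.113) and -0.09 with CKO (adjusted p = 0.438), were not called. Without fl/fl vehicle replicate 2 the first was called at -0.28 (adjusted p = 0.0176), while removing GC and length trends gave -1.29 and -1.16, both called, and the pan-macrophage scale gave 0.42 and 0.48. Retnla is 599 bases long, the shortest of the 10. Tgm2 had 374 to 406 CPM in the 6 libraries and 360 and 380 CPM in fl/fl vehicle. It overlapped with fl/fl vehicle in CKO vehicle alone, and it was not called (0.09 and 0.08). Library totals called it higher, at 0.26 and 0.24, and so did the pan-macrophage scale, at 0.68 and 0.64. Pdcd1lg2, which encodes the PD-1 ligand PD-L2, had 13 to 83 counts in a WAT library and log2 differences of 0.28 ± 0.718 and 0.25, so a change was not detectable at this depth.

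**Figure D2:**
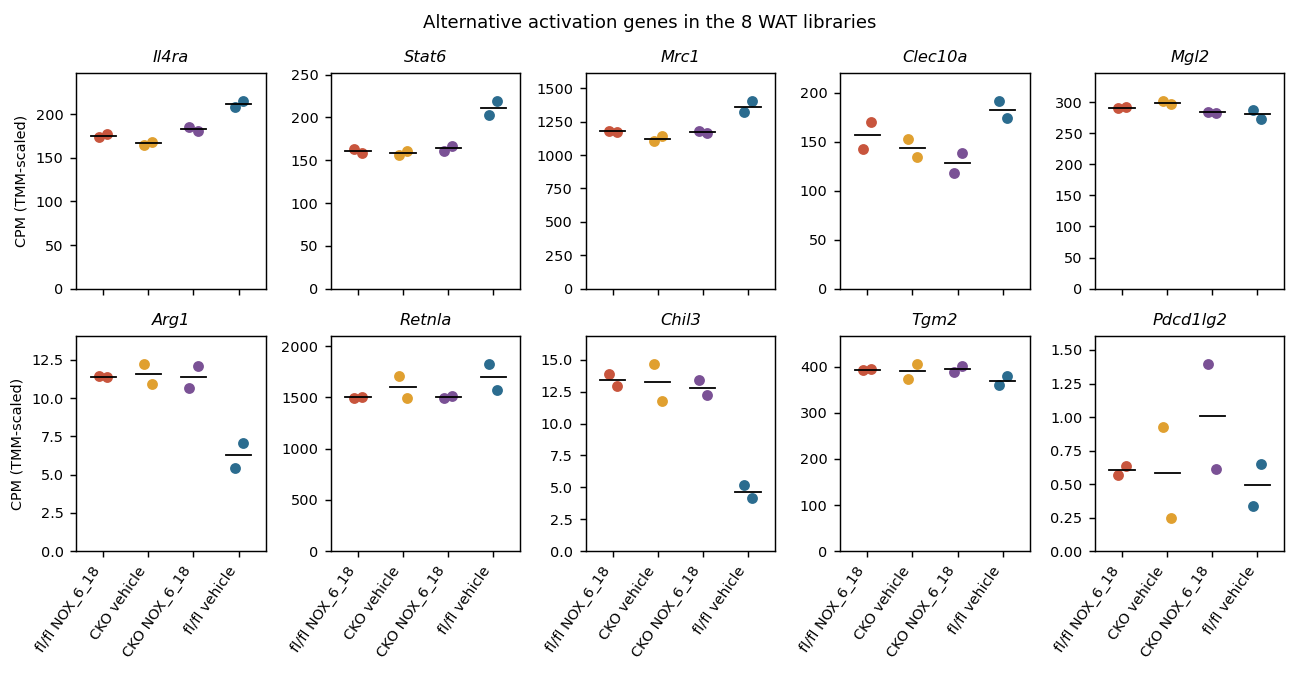
CPM (TMM-scaled within WAT) of the 10 genes in the 8 WAT libraries, 1 point per library and a line at the mean of each group of 2. Arg1 and Chil3 lie higher in all 6 libraries of the first 3 groups than in fl/fl vehicle, and Il4ra, Stat6, Mrc1 and Clec10a lie lower on this scale, a direction that the pan-macrophage scale turns.

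In WAT 2 of the 10 members were called higher and 3 lower with NOX_6_18 in fl/fl mice, where 24.6% of all 25871 tested genes were called higher and 13.2% lower. With CKO on vehicle 2 were higher and 4 lower, against 24.4% and 12.4% of all genes. The median log2 difference of the 10 was -0.06 with NOX_6_18 and -0.01 with CKO, against 0.12 and 0.10 over all tested genes. With library totals those all-gene medians became 0.29 and 0.26, and with the pan-macrophage sum 0.71 and 0.66, so members at 0.32 or 0.38 on the latter scale stood below the median gene. The calls over all genes were 65.1% higher with TMM, 82.5% with library totals, 98.1% with the pan-macrophage sum and 52.7% with GC and length trends removed, for NOX_6_18. With CKO the shares were 66.3%, 83.5%, 98.1% and 53.5%. Counted by separation, 2 members lay above both fl/fl vehicle libraries in all 6 others and 4 below, where 30.5% and 20.8% of all genes did.

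The pan-macrophage markers themselves moved in WAT. Their summed level was 9067 to 9535 CPM in the 6 libraries, against 13141 and 14434 CPM in fl/fl vehicle, and of the 18 markers 2 rose and 14 fell with NOX_6_18. In that comparison 24.6% of all genes in WAT were called higher and 13.2% lower. Mrc1 is not one of the markers, and its counts equalled 12.9%, 12.1% and 12.8% of theirs in fl/fl NOX_6_18, CKO vehicle and CKO NOX_6_18 and 9.91% in fl/fl vehicle. The counts of Retnla, also outside the list, equalled 16.4%, 17.2% and 16.5% of the marker counts in those 3 groups and 12.3% in fl/fl vehicle. On the pan-macrophage scale edgeR called Mrc1 higher with NOX_6_18 (0.38, adjusted p = 0.00371) and with CKO (0.29, adjusted p = 0.0135), and likewise Retnla (0.42, adjusted p = 0.000335, and 0.48, adjusted p = 0.000153).

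In liver every called member was higher than in fl/fl vehicle. Il4ra had 126 and 115 CPM in fl/fl NOX_6_18, 121 and 128 CPM in CKO vehicle and 122 and 126 CPM in CKO NOX_6_18, against 82.7 and 76.2 CPM in fl/fl vehicle, so the groups did not overlap. With NOX_6_18 it rose by 0.60 ± 0.0696 (1.52-fold, adjusted p = 0.0016), and with CKO by 0.65 ± 0.0696 (adjusted p = 0.0011). Stat6, at 111 to 122 CPM in the 6 libraries and 103 and 106 CPM in fl/fl vehicle, lay higher in all 6, but its differences of 0.19 ± 0.0578 and 0.19 were not called (adjusted p = 0.115 and 0.12).

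Mrc1 had 1286 and 1277 CPM in liver of fl/fl NOX_6_18, 1259 and 1283 CPM in CKO vehicle and 1298 and 1301 CPM in CKO NOX_6_18, against 1027 and 1021 CPM in fl/fl vehicle. It rose by 0.32 ± 0.0285 with NOX_6_18 (adjusted p = 0.000351) and by 0.31 ± 0.0285 with CKO (adjusted p = 0.000443). The 18 pan-macrophage markers summed to 2632 to 2709 CPM in the 6 libraries and 2695 and 2716 CPM in fl/fl vehicle, and 1 rose and 1 fell with NOX_6_18. Relative to those marker counts, which exclude it, Mrc1 came to 48.5%, 47.4% and 49.1% in fl/fl NOX_6_18, CKO vehicle and CKO NOX_6_18 and 37.9% in fl/fl vehicle. Liver sinusoidal endothelial markers moved the same way, at 7358 to 7523 CPM in the 6 libraries and 5760 and 5764 CPM in fl/fl vehicle, with 5 of 7 tested higher and 0 lower with NOX_6_18. In that comparison 3.78% of all genes in liver were called higher and 1.74% lower. Of the 5 Kupffer cell markers, which label the resident macrophages of the liver, 4 were higher and 0 lower with NOX_6_18, and they summed to 1472 to 1523 CPM against 1220 and 1259 CPM in fl/fl vehicle. The part of either cell type in the Mrc1 difference was not tested.

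Arg1 had the smallest adjusted p of the 10 in liver. It had 88.3 and 88.1 CPM in fl/fl NOX_6_18, 85.7 and 84.3 CPM in CKO vehicle and 85.3 and 80.2 CPM in CKO NOX_6_18, against 41.5 and 35.5 CPM in fl/fl vehicle. The 6 libraries lay close together and none came near the 2 fl/fl vehicle libraries. With NOX_6_18 it rose by 1.19 ± 0.0808 (2.29-fold, adjusted p = 8.41e-05), and with CKO by 1.14 ± 0.0807 (adjusted p = 0.000101). Other genes of the urea cycle and arginine metabolism moved with it: 6 of 10 tested rose and 0 fell in each comparison. Of all genes in liver, 3.78% were called higher and 1.74% lower with NOX_6_18, and 3.96% and 1.83% with CKO. Ass1, argininosuccinate synthase, rose by 0.92 with NOX_6_18 and 1.16 with CKO, and Otc, ornithine transcarbamylase, by 0.94 and 0.96. Cps1, which feeds ammonia into the cycle, had 86.6, 86.4 and 91.9 CPM in fl/fl NOX_6_18, CKO vehicle and CKO NOX_6_18 and 94.9 CPM in fl/fl vehicle. The hepatocyte list summed to 3416 to 3538 CPM in the 6 libraries and 2877 and 3019 CPM in fl/fl vehicle, with 6 of 11 markers higher and 2 lower with NOX_6_18. Alb, its most abundant member, ran the other way, at 1764, 1775 and 1752 CPM against 1978 CPM in fl/fl vehicle, and the part of hepatocyte RNA was not tested.

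Chil3 had 4.98 and 4.58 CPM in liver of fl/fl NOX_6_18, 3.91 and 4.48 CPM in CKO vehicle and 4.54 and 6.00 CPM in CKO NOX_6_18, against 1.92 and 2.07 CPM in fl/fl vehicle, with no overlap. It rose by 1.26 ± 0.201 with NOX_6_18 (adjusted p = 0.00848) and by 1.07 ± 0.201 with CKO (adjusted p = 0.018). Neither call held in every fit with 1 library left out: the first was lost without fl/fl vehicle replicate 1 (1.20, adjusted p = 0.0657) or fl/fl NOX_6_18 replicate 1 (1.20, adjusted p = 0.0564). The second was lost without fl/fl vehicle replicate 1 (adjusted p = 0.11) or replicate 2 (0.0763) and without CKO vehicle replicate 1 (0.0524) or replicate 2 (0.0993). Of 12 neutrophil markers, 10 rose and 0 fell with NOX_6_18, with S100a9, a calcium-binding protein abundant in neutrophils, higher by 4.76, and their part in the Chil3 level was not tested. In that comparison 3.78% of all genes in liver were called higher and 1.74% lower. Chil4 was well above Chil3 here, at 14.0, 13.3 and 12.0 CPM in the 3 groups and 10.1 CPM in fl/fl vehicle, so reads shared by the pair make the liver value of Chil3 uncertain.

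The other liver members were not called. Retnla had 2.77 to 3.94 CPM in the 6 libraries and 1.81 and 2.47 CPM in fl/fl vehicle, so all 6 lay above, but differences of 0.43 ± 0.244 and 0.54 were not called (adjusted p = 0.418 and 0.292). Mgl2 had 2.61 to 4.26 CPM in the 6 libraries and 1.81 and 2.45 CPM in fl/fl vehicle, also with all 6 above, and was not called either (0.32 and 0.69, adjusted p = 0.641 and 0.236). Clec10a had 2.92 to 4.10 CPM in the 6 libraries and 3.76 and 3.99 CPM in fl/fl vehicle. CKO vehicle lay below fl/fl vehicle for this gene, and the other groups overlapped with it. Tgm2, which cross-links proteins and is abundant in endothelium as well, had 372 to 392 CPM in the 6 libraries and 356 and 376 CPM in fl/fl vehicle. It overlapped with fl/fl vehicle in fl/fl NOX_6_18 alone, with differences of 0.03 and 0.08 (adjusted p = 0.836 and 0.36). Exons of Tgm2 share 370 bases with Rprd1b and 633 with Gm20412 on the other strand. Pdcd1lg2 had 29 and 18 counts in fl/fl NOX_6_18, 5 and 10 in CKO vehicle and 8 and 4 in CKO NOX_6_18, against 31 and 20 in fl/fl vehicle. Its difference with CKO was -1.92 ± 0.822 (adjusted p = 0.265), and with CKO on NOX_6_18 it was -1.88 (adjusted p = 1), so neither passed.

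**Figure D3:**
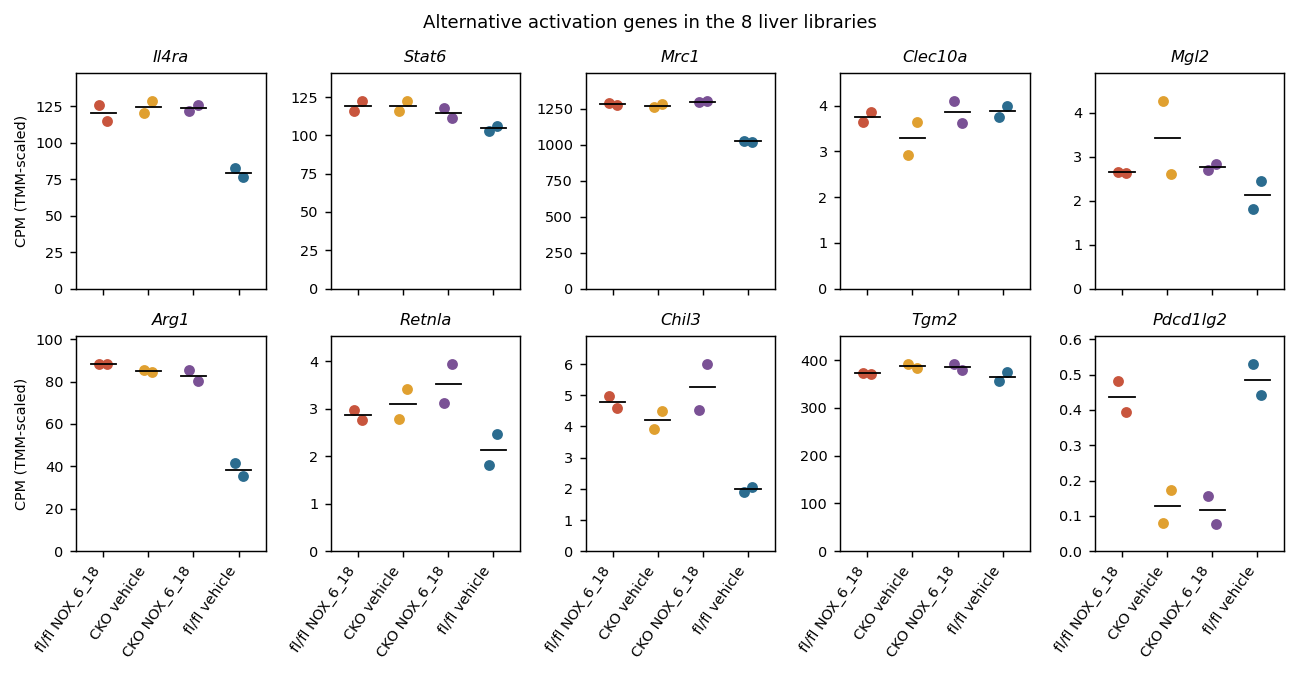
CPM (TMM-scaled within liver) of the 10 genes in the 8 liver libraries, 1 point per library and a line at the mean of each group of 2. Il4ra, Mrc1, Arg1 and Chil3 lie higher in all 6 libraries of the first 3 groups than in fl/fl vehicle, and Pdcd1lg2 rests on 4 to 31 counts.

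With NOX_6_18 in fl/fl mice 4 of the 10 members were called higher in liver and 0 lower, where 3.78% of the 19515 tested genes were called higher and 1.74% lower. With CKO on vehicle the same 4, namely Il4ra, Mrc1, Arg1 and Chil3, were higher and 0 lower, against 3.96% and 1.83% of all genes. The median difference of the 10 was 0.32 and 0.43 log2 units, against -0.00 and -0.01 over all genes. By separation 7 members lay above both fl/fl vehicle libraries in all 6 others and 0 below, where 12.7% and 12.2% of all genes did. Both comparisons share their control libraries, so they are not independent of each other.

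**Figure D4:**
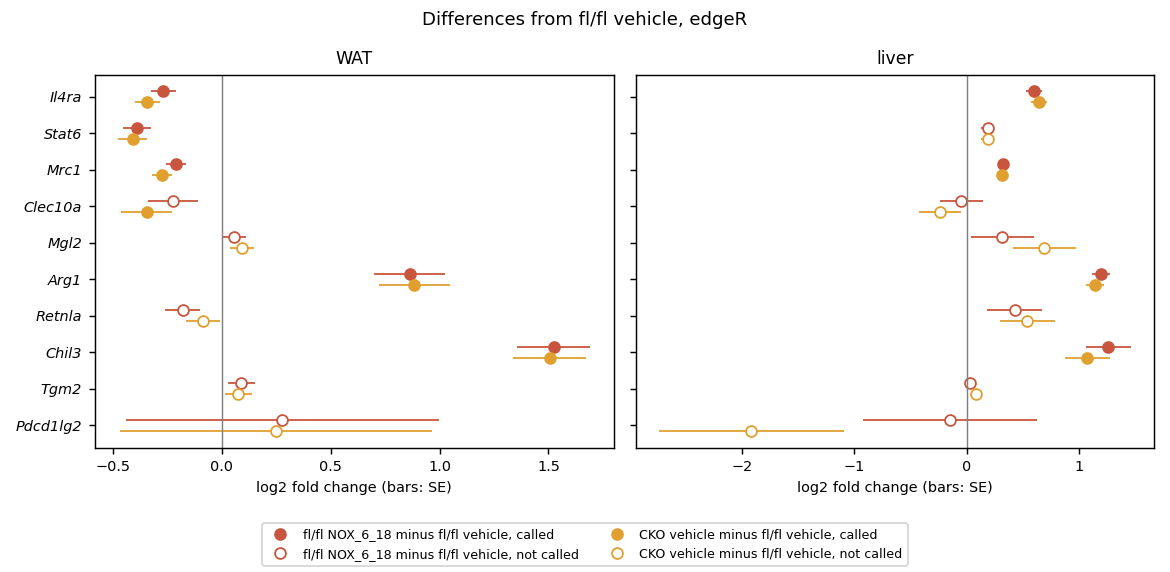
Log2 fold change with SE of the 10 genes against fl/fl vehicle, in WAT and liver, for fl/fl NOX_6_18 and CKO vehicle. Filled points are called at adjusted p under 0.05 by edgeR. Chil3 and Arg1 lie to the right in both tissues, while Il4ra, Stat6 and Mrc1 lie to the left in WAT on this scale, turned by the pan-macrophage scale, and to the right in liver.

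In the within-tissue comparisons without the fl/fl vehicle libraries, no member was called. With NOX_6_18 in CKO mice 0 of 10 were called by edgeR in WAT, against 0.0155% of all genes, and 0 in liver, against 0.0359%. With CKO on NOX_6_18 0 were called in WAT, against 0.0348%, and 0 in liver, against 0.0359%. DESeq2 and limma-voom also called 0 in each of these 4 comparisons. At an unadjusted p under 0.05 edgeR listed 1 member, Il4ra, in WAT for NOX_6_18 in CKO (0.13) and 1, Clec10a, in WAT for CKO on NOX_6_18 (-0.28), and 0 in liver for either. The member differences ran from -0.16 to 0.77 in WAT and from -0.31 to 0.33 in liver for NOX_6_18 in CKO. For CKO on NOX_6_18 the range was -0.28 to 0.74 in WAT, and in liver it was -1.88 to 0.30. The extremes 0.77, 0.74 and -1.88 were those of Pdcd1lg2.

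The treatment by genotype interaction, which asks whether NOX_6_18 acted differently in CKO than in fl/fl mice, was called for 3 members above 0 and 2 below in WAT, where 6.71% and 18.6% of all genes were called. In liver 0 were above and 3 below, against 0.584% and 1.87%. In WAT Chil3 had -1.57 ± 0.231 (adjusted p = 0.00154) and Arg1 -0.89 ± 0.228 (adjusted p = 0.0231), and in liver Arg1 had -1.23 ± 0.113 (adjusted p = 0.000952), each close in size to the rise in fl/fl mice and opposite to it. Liver Chil3, at -0.93, was not called (adjusted p = 0.161). The fl/fl vehicle libraries enter this term as well. Of the WAT calls, Arg1 was lost without any 1 of 5 libraries, fl/fl NOX_6_18 replicate 1 or 2, CKO vehicle replicate 1 or CKO NOX_6_18 replicate 1 or 2 (adjusted p between 0.051 and 0.0931), and Mrc1 without the same 5 (0.0579 to 0.104). Removing GC and length trends also ended the Arg1 call in WAT, at -0.57 (adjusted p = 0.109). Library totals ended the 3 WAT calls above 0, Il4ra at 0.24 (adjusted p = 0.0706), Stat6 at 0.27 (0.0694) and Mrc1 at 0.10 (0.32), and Mgl2 was then called below 0 beside Arg1 and Chil3. The pan-macrophage scale turned Il4ra, Stat6 and Mrc1 to -0.16, -0.13 and -0.30, none of them called (adjusted p = 0.292, 0.471 and 0.0591). Stat6 was lost without fl/fl NOX_6_18 replicate 2 (adjusted p = 0.0592). Liver Il4ra was lost without fl/fl vehicle replicate 2 (adjusted p = 0.0554), CKO vehicle replicate 2 (0.0567) or CKO NOX_6_18 replicate 1 (0.0667).

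On the TMM scale the effects on Il4ra, Stat6 and Mrc1 differed by tissue, although Stat6 was not called within liver. The effect of NOX_6_18 in fl/fl mice, WAT minus liver, was called for 0 members above 0 and 3 below, where 7.51% and 7.2% of all genes were called, and that of CKO on vehicle likewise for 0 and 3, against 7.44% and 6.75%. The 3 were Il4ra, Stat6 and Mrc1. For Il4ra the tissue difference was -0.87 ± 0.0927 with NOX_6_18 (adjusted p = 7.77e-05) and -0.98 ± 0.0928 with CKO (adjusted p = 3.02e-05). For Stat6 it was -0.58 ± 0.0858 (adjusted p = 0.000747) and -0.59 ± 0.0858 (adjusted p = 0.000646). For Mrc1 it was -0.53 ± 0.0559 (adjusted p = 6.94e-05) and -0.58 ± 0.0559 (adjusted p = 3.47e-05). The share of all calls above 0 was 51.1% with TMM for NOX_6_18, 71.9% with library totals and 30.9% with GC and length trends removed, and for CKO it was 52.4%, 72.5% and 32.5%. The pan-macrophage scale was not run over both tissues. Relative to the pan-macrophage marker counts, the 3 genes averaged higher in fl/fl NOX_6_18 than in fl/fl vehicle in both tissues. In WAT Il4ra came to 1.92% against 1.54%, Stat6 to 1.76% against 1.53% and Mrc1 to 12.9% against 9.91%. In liver they came to 4.56% against 2.94%, 4.51% against 3.87% and 48.5% against 37.9%. On the pan-macrophage scale edgeR did not call Stat6 with NOX_6_18 in WAT (0.20, adjusted p = 0.105).

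Further genes of the pathway were lower in part in WAT on the TMM scale. Of 16 further IL-4 and IL-13 signalling genes, 1 rose and 5 fell in WAT with NOX_6_18 and 1 rose and 6 fell with CKO, with medians of -0.11 and -0.16, against 0.12 and 0.10 over all genes. On the pan-macrophage scale 10 rose and 0 fell with NOX_6_18 and 8 rose and 0 fell with CKO, and with library totals the medians turned to 0.06 and 0.00. Of all 25871 genes, that pan-macrophage scale called 14116 higher and 268 lower with NOX_6_18 and 13624 higher and 265 lower with CKO. With TMM 24.6% of these genes were called higher and 13.2% lower with NOX_6_18, and 24.4% and 12.4% with CKO. Jak1, a kinase bound to the receptor, had -0.37 and -0.39, Jak3, bound to the common gamma chain, -0.41 and -0.48, and Ptpn6, the phosphatase SHP-1, -0.58 and -0.49. The pan-macrophage scale turned all 3 above 0, but edgeR then called only Jak1 with NOX_6_18, at 0.22 (adjusted p = 0.0458). Jak1 with CKO had 0.17 on that scale, Jak3 had 0.19 and 0.08 and Ptpn6 had 0.02 and 0.08, none of them called. Cish, a feedback inhibitor induced by STAT5, rose by 0.66 and 0.71. In liver 3 of 15 tested rose and 0 fell with NOX_6_18, and 2 rose and 0 fell with CKO. There 3.78% of all genes were called higher and 1.74% lower with NOX_6_18, and 3.96% and 1.83% with CKO. Il13ra2, a decoy receptor for IL-13, rose to 20.3 ± 0.495 CPM in fl/fl NOX_6_18 and 20.3 ± 1.41 CPM in CKO vehicle, against 6.80 ± 1.94 CPM in fl/fl vehicle (SD, n = 2 each), by 1.58 and 1.57 on the log2 scale. The ligands were scarce, with Il4 at no more than 1.21 CPM and Il13 between 0 and 0.673 CPM in any library.

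Other genes of alternative activation were mixed. Of 26 tested in WAT, 3 rose and 11 fell with NOX_6_18 and 3 rose and 9 fell with CKO, with medians of -0.24 and -0.20, where the pan-macrophage scale gave 14 higher and 3 lower with NOX_6_18 and 13 higher and 2 lower with CKO. Trem2, a lipid-sensing receptor of macrophages, had -1.47 and -1.19, and Il10, the anti-inflammatory cytokine, -1.07 and -0.97. In liver 5 of 25 rose and 2 fell in each comparison, with medians of -0.09 and -0.15. Of all tested genes in liver, 3.78% were called higher and 1.74% lower with NOX_6_18, and 3.96% and 1.83% with CKO. Lyve1, a hyaluronan receptor of macrophages and endothelium, rose by 0.51 and 0.46, Klf4, a transcription factor that cooperates with STAT6, by 0.65 and 0.63, and Cd163, the haemoglobin scavenger receptor, by 0.59 and 0.58. Of 20 classical activation genes in WAT, 3 rose and 6 fell with NOX_6_18 and 4 rose and 4 fell with CKO, against 12 and 2, and 12 and 1, on the pan-macrophage scale, where 14116 of all 25871 genes were called higher with NOX_6_18 and 13624 with CKO. On the TMM scale 24.6% of all genes in WAT were called higher and 13.2% lower with NOX_6_18, and 24.4% and 12.4% with CKO. Among the classical activation genes were Nos2, which competes with arginase for arginine, at -1.04 and -0.98 and Cxcl10, an interferon-induced chemokine, at 0.89 and 0.99. In liver 3 of 19 rose and 1 fell with NOX_6_18 and 3 rose and 2 fell with CKO, Il1b rising by 0.72 and 0.75. Of 8 tested sources and alarmins of type 2 cytokines in WAT, 3 rose and 2 fell with NOX_6_18 and 3 rose and 3 fell with CKO, where the pan-macrophage scale left 0 lower in either. In liver Il33, an alarmin of stromal cells, alone of 7 rose, by 0.51 and 0.56.

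**Figure D5:**
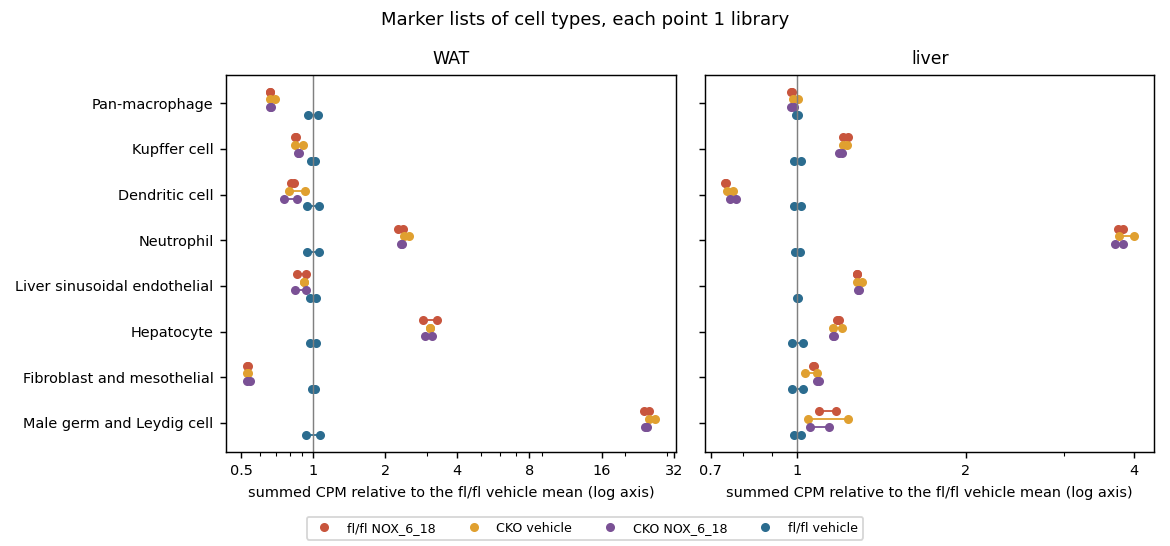
Summed CPM of 8 cell type marker lists in each library relative to the mean of fl/fl vehicle in the same tissue (log axis), 1 point per library joined within a group. Neutrophil markers lie above the fl/fl vehicle line in both tissues, male germ and Leydig cell markers lie far above it in WAT, and pan-macrophage markers lie below it in WAT and near it in liver.

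Among relatives of the members, Arg2, the mitochondrial arginase, had 2.98, 3.83 and 3.13 CPM in WAT of fl/fl NOX_6_18, CKO vehicle and CKO NOX_6_18 and 1.23 CPM in fl/fl vehicle, and 1.81, 1.94 and 2.03 CPM against 0.582 CPM in liver. Retnlg, a relative of Retnla made by myeloid cells, had 5.37, 6.68 and 6.54 CPM in WAT against 2.03 CPM, and 5.14, 6.59 and 4.91 CPM in liver against 1.87 CPM. Of 17 paralogs tested in WAT 5 rose and 7 fell in each comparison, where 24.6% and 13.2% of all genes did with NOX_6_18 and 24.4% and 12.4% with CKO. On the pan-macrophage scale 9 rose and 1 fell in each, where 14116 and 13624 of 25871 genes rose. Arg1 and Arg2 share 0% of 50-base windows, as do Retnla and Retnlg.

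The genes most like each member over the 8 libraries of a tissue were listed by Pearson r of log2 CPM, as a description. In WAT Chil3 ran with Car3 and Ncbp1 (r = 0.998 each) and Usp1 (0.997), and Stat6 with Tm4sf19 (0.998), Adam12 and Tgfbr2 (0.997 each). In liver Arg1 ran with Il1b, Saa1 and Fgb (0.996 each), and Mrc1 with Sult2a8 (0.999), Kcnk6 (0.998) and Sgk1 (0.997). Liver Il4ra ran with Slc38a2 (0.996), Fah (0.995) and Klf15 (0.994). All 8 points share the split between the 2 fl/fl vehicle libraries and the other 6.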

How the data were processed

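The 10 genes and all comparison lists were chosen with earlier results of these data known, and lists are only described. The authors deposited whole-number read counts per gene for each of the 16 libraries. HISAT, featureCounts 1.5.0, DESeq 1.8.3 and GRCm38 are named, without roles, per the submitters' processing notes, and libraries were made from TRIzol-extracted total RNA with a KAPA stranded kit, per the labels' protocols. Annotation release, strand setting and filters: not given in the sources used here. Sample titles gave the group and the replicate number.

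Of the 55421 listed genes, 55240 (99.7%) matched GENCODE M21 by identifier, and the others held no more than 0.0173% of any library. No 2 libraries held identical values (0 pairs). The counts were tested as deposited in edgeR 4.0.16 under R 4.3.3 (quasi-likelihood test), with TMM factors, filterByExpr by group and 1 coefficient per group. The 8 libraries of a tissue shared a fit, and comparisons of tissues used all 16. P-values were Benjamini-Hochberg adjusted over the 25871 genes that passed in WAT, the 19515 in liver or the 26751 in both tissues together, and a call is an adjusted p under 0.05. Each SE is the size of the log2 fold change divided by the root of its F. The script was tested on simulated counts. CPM are counts per 1000000 of the library total times the TMM factor, and floors of 3 counts cover counting error only.

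The text names the 10 members in every comparison, up to 4 called genes of the smallest adjusted p from each other list, and 3 genes per member by r (log2 CPM, prior count 2, at least 5 CPM in the tissue). Relatives of members and Gpr132 are given besides. Alternatives were relative log expression (RLE) factors, library totals, the pan-macrophage sum as scale, offsets removing each library's trend with GC content and length (loess span 0.3), no filter, a minimum of 50 counts in 2 libraries, limma-voom (limma 3.58.1), DESeq2 1.42.0, a replicate block, fits to the compared groups alone or to all 16 libraries, and each library left out in turn. RefSeq promoters were searched in Python 3.11.15, and transcripts aligned with Biopython 1.88.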

Additional observations from a re-analysis of the deposited data

Results flagged for a closer look

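A difference between groups in the same contrast was called by edgeR for 14 combinations of gene and contrast. The response to NOX_6_18 differed between CKO and fl/fl mice in WAT for Il4ra (0.41 on the log2 scale), Stat6 (0.44), Mrc1 (0.27), Arg1 (-0.89) and Chil3 (-1.57). Of these, the signs of Il4ra, Stat6 and Mrc1 turned on the pan-macrophage scale. In liver it differed for Il4ra (-0.61), Mrc1 (-0.29) and Arg1 (-1.23). In fl/fl mice NOX_6_18 differed in effect between WAT and liver for Il4ra (-0.87), Stat6 (-0.58) and Mrc1 (-0.53). CKO on vehicle differed in effect between the tissues for Il4ra (-0.98), Stat6 (-0.59) and Mrc1 (-0.58). All 14 contain the fl/fl vehicle libraries, which stood apart in both tissues. The differences between tissues are on the TMM scale, and the pan-macrophage scale was not run over both tissues. As a share of pan-macrophage marker counts in CKO vehicle, Mrc1 was 12.1% in WAT and 47.4% in liver, against 9.91% and 37.9% in fl/fl vehicle. Stat6 was 1.71% and 4.445%, against 1.53% and 3.87%, and Il4ra was 1.79% and 4.65%, against 1.54% and 2.94%. The WAT shares of Stat6 had an SD of 0.0991 in CKO vehicle and 0.185 in fl/fl vehicle (n = 2 each). On the pan-macrophage scale edgeR did not call Stat6 with CKO in WAT (0.15, adjusted p = 0.197).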

How the results depend on the processing

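Over 87 gene results and their alternatives, 1131 values kept direction and side of the threshold, 55 lost the call, 12 gained one and 35 changed sign. The count of members called for NOX_6_18 in WAT of fl/fl mice was 5, and became 8 (8 higher, 0 lower) on the pan-macrophage scale and 8 (2 higher, 6 lower) with GC and length trends removed. The WAT interaction count of 5 (3 above 0, 2 below) became 3 (0 above, 3 below) with library totals. Counts of 3 for the tissue difference in effect became 6 with GC and length trends removed, for NOX_6_18 and for CKO, and 5 with DESeq2 for CKO. Leaving out 1 library gave 3 to 6 for NOX_6_18 in WAT, 5 to 5 for CKO in WAT (main count 6), 2 to 5 for the WAT interaction, 3 to 4 and 3 to 3 for NOX_6_18 and CKO in liver (4 each with all libraries), 2 to 3 for the liver interaction, 7 to 9 for WAT against liver, 3 to 4 for either tissue difference in effect, and 0 to 0 where no member was called.

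The pan-macrophage scale turned, for NOX_6_18 in WAT, Il4ra to 0.32, Stat6 to 0.20, Mrc1 to 0.38, Clec10a to 0.37 and Retnla to 0.42. For CKO it turned them to 0.22, 0.15, 0.29, 0.22 and 0.48, and the WAT interaction of Il4ra, Stat6 and Mrc1 to -0.16, -0.13 and -0.30. Removing GC and length trends turned Mgl2 to -0.22 and -0.20 and Pdcd1lg2 to -0.073 and -0.12 (NOX_6_18 and CKO in WAT), and Chil3 in WAT against liver of CKO vehicle to -0.50. Library totals turned Retnla to 0.078 (CKO in WAT), and in WAT against liver Il4ra to 0.59, 0.46 and 0.60, Stat6 to 0.48, 0.45 and 0.55 and Tgm2 to 0.13, 0.049 and 0.070 (fl/fl NOX_6_18, CKO vehicle, CKO NOX_6_18), and Mrc1 to 0.29 (fl/fl vehicle). Leaving out 1 library turned only uncalled values. Pdcd1lg2 in WAT ranged between -0.11 and 0.83 with NOX_6_18 and between -0.99 and 0.90 with CKO. Retnla with CKO in WAT ranged between -0.19 and 0.023, and Tgm2 with NOX_6_18 in liver between -0.013 and 0.069. The libraries whose absence turned them were fl/fl vehicle replicate 1 (all 4), CKO vehicle replicate 1 (Pdcd1lg2) and CKO vehicle replicate 2 (Retnla). Each cause was not tested.

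The labels do not say that a replicate number marks an animal. Deviations of same-numbered libraries from different groups of 1 tissue correlated between -0.0274 and 0.025. Same-numbered WAT and liver libraries were not compared in that way, so those values cannot show whether such libraries share a mouse. The fits over both tissues treated all 16 libraries as independent. With the replicate block the members called were 5 for NOX_6_18 in WAT (5 without it) and 5 for CKO in WAT (6 without it), as Clec10a missed the threshold at -0.35 (adjusted p = 0.0682). Pdcd1lg2 in WAT against liver of CKO NOX_6_18 missed it too, at 2.00 (adjusted p = 0.0543). No other count of members changed under the block by over 1.5 times. Over all genes, DESeq2 called 46 genes for NOX_6_18 in CKO in WAT against 4 by edgeR, and 46 for CKO on NOX_6_18 against 9. In liver it called 35 and 42 against 7 and 7. Genes called lower with NOX_6_18 in fl/fl WAT numbered 3411, and 1585 with library totals. The pan-macrophage scale was not run over both tissues. With 2 libraries a group and few counts, the change of Pdcd1lg2 has an SE too wide to settle its direction.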

Other observations

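Mast cells, basophils and eosinophils are sources of IL-4, and their 10 markers summed to 205 to 228 CPM in the 6 WAT libraries other than fl/fl vehicle, against 367 and 409 CPM in fl/fl vehicle. With NOX_6_18 in fl/fl mice 1 of 9 tested rose and 4 fell, among them the mast cell proteases Tpsb2 (-0.90), Cpa3 (-0.91) and Cma1 (-0.88), by edgeR. Of all genes in WAT, 24.6% were called higher and 13.2% lower in that comparison. In liver the 10 markers summed to 4.55 to 7.29 CPM in the 6 libraries and 8.82 and 10.1 CPM in fl/fl vehicle.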
